A study of Mus musculus with 8 samples.

Results

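The genes described here are 38 genes of microglia, the resident macrophages of the retina, measured in neural retinas of 4 Mfp2-/- and 4 control mice. They were taken by symbol from the 43472 symbols of the count tables, and all 38 were listed there. They comprise 10 homeostatic genes, 7 activation genes, 8 genes shared by myeloid cells, 4 Fc receptor genes, 5 genes of innate sensing and lysozyme, 2 chemokines, and the pair Ucp2 and Apobec1. The Mfp2-/- mice lacked multifunctional protein 2, a peroxisomal β-oxidation enzyme encoded by Hsd17b4. Of the control mice 3 were Mfp2+/+ and 1, replicate 2, was Mfp2+/-. All mice had a C57BL/6J background and were 3 weeks of age (postnatal day 21), and each library held RNA from the retinas of 1 mouse.

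Microglia survey the healthy retina through receptors for nucleotides and for neuronal fractalkine, and their survival depends on the CSF1 receptor. In degenerating tissue they engulf debris, and lipid sensing by TREM2 with its adaptor TYROBP is known to accompany induction of genes such as Cst7, Clec7a, Gpnmb, Spp1 and Axl. In the disease-associated state described in mouse brain, homeostatic genes such as P2ry12, Tmem119 and Cx3cr1 are lower per cell. The retinas were sequenced in bulk, so more microglia and more RNA per microglial cell cannot be told apart.

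Counts assigned to genes ranged from 1895485 to 2826553 in Mfp2-/- libraries and from 2340974 to 3226187 in control libraries. Hsd17b4 had 1, 0, 1 and 0 counts in Mfp2-/- retinas, against 47, 20, 78 and 37 counts in control retinas. Reads outside genes took 10.8% and 15.7% of the reads of Mfp2-/- replicates 2 and 3, against 22.6 to 29.9% in control libraries, while Mfp2-/- replicates 1 and 4 had 27.5% and 28.0%. These 2 libraries stand apart, and results that rest on them are given with and without them. Rod markers identified the tissue but were much lower in Mfp2-/- retinas, with a summed level of 851 to 1218 CPM in Mfp2-/- retinas and 23406 to 26578 CPM in control retinas (CPM, counts scaled to library size with TMM factors). The part of this loss in the CPM of other genes was not tested. Scaling by library totals alone instead of TMM gave all tested genes a median log2 fold change of 0.12 in place of -0.0039, a shift smaller than the change of every member that passed.

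Most of the microglia genes rose in Mfp2-/- retinas, and none fell. Their summed level was 467 to 600 CPM in Mfp2-/- retinas and 98.6 to 123 CPM in control retinas. In a fit of all 22095 genes with a count, 29 of 38 members passed upward and 0 downward (edgeR, adjusted p under 0.05), beside 7.69% of all genes upward and 8.12% downward. All 4 Mfp2-/- libraries lay above all 4 control libraries for 29 members, beside 10.3% of all genes with a count, and below them for 0 members, beside 9.97% of genes. The groups overlapped for 9 members. With 1 library left out at a time, 25 to 30 of the 38 passed upward, and 27 did without the Mfp2+/- control. After a filter on low counts 22 members were left, and 21 of them passed upward, beside 13.8% of 12516 genes upward and 13.2% downward. Members that pass this filter can do so through the Mfp2-/- libraries alone, so the 21 of 22 is given as a count only. Values below are from the filtered fit where a gene passed the filter, and otherwise from the fit without it.

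**Figure D1:**
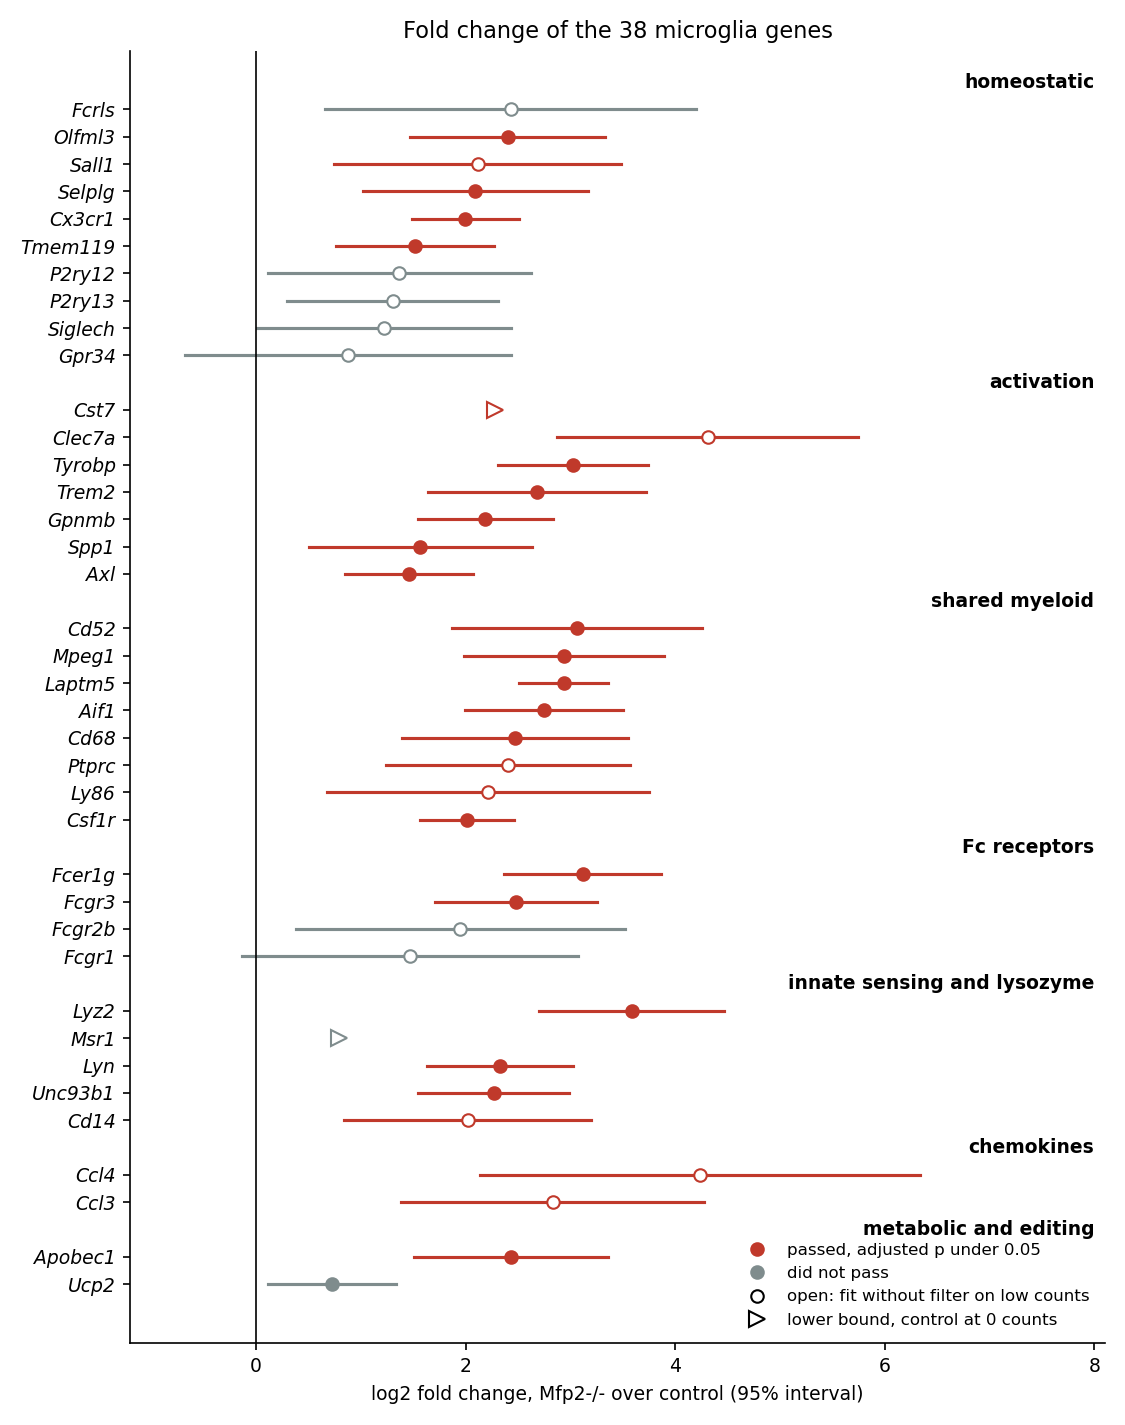
Log2 fold change of each of the 38 genes, Mfp2-/- over control, with 95% intervals, grouped by role (x axis log2 fold change, 4 libraries per group). Red genes passed an adjusted p of 0.05 in edgeR and grey ones did not. Triangles, labelled lower bound, mark Cst7 (4.86-fold) and Msr1 (1.74-fold), which had 0 counts in all control libraries. These ratios put the control group at a floor of 3 counts and leave out the error of the Mfp2-/- counts, so smaller folds are possible.

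The promoters of the members were searched for the core letters bound by PU.1, the transcription factor of the myeloid lineage encoded by Spi1. The letters GAGGAA, on either strand within 250 bases upstream of the start, were found in 13 of the 27 members with a RefSeq promoter entry (48.1%), beside 25.85% of 27025 genes. The longer letters GAGGAAGT were found in 1 of 27 members, Spp1, beside 2.79% of genes, and the palindrome TCACGTGA, an E-box of lysosomal genes, in 1, Siglech, beside 0.907%. A match describes these letters only, and matches were not compared between members that rose and members that did not pass. The 6 stretches below, from RefSeq on GRCm38.p6, show matches in 4 genes that rose (Laptm5, Trem2, Clec7a and Aif1) and in P2ry13 and Fcrls, which did not pass, 5′ to 3′ on the gene's strand, with the matched letters (GAGGAA, or TTCCTC where it lies on the other strand) in capitals.
Laptm5 (chr4:130913248-130913313, plus strand): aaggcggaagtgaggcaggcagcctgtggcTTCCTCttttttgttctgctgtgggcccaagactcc
Trem2 (chr17:48346331-48346396, plus strand): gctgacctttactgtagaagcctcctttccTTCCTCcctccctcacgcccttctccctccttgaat
Clec7a (chr6:129472840-129472905, minus strand): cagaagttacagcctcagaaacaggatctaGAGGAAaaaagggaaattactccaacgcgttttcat
Aif1 (chr17:35176053-35176089, minus strand): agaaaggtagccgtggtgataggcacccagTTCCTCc
P2ry13 (chr3:59210895-59210960, minus strand): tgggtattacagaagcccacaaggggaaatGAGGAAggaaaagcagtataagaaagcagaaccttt
Fcrls (chr3:87263633-87263698, minus strand): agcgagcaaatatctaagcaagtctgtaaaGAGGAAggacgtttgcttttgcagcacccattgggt
Spi1 itself had 6.37, 12.2, 11.4 and 8.09 CPM in Mfp2-/- retinas, against 0.364, 2.26, 0.645 and 0.697 CPM in control retinas (log2 fold change 3.29 ± 0.47 (SE), adjusted p = 5.15e-04). It was named after its values were seen, and its part in the levels of the members was not tested.

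Among the homeostatic genes, 5 of 10 rose in the fit without the filter (Cx3cr1, Tmem119, Olfml3, Selplg and Sall1), beside 7.69% of all genes. These same 5 had groups that did not overlap, beside 10.3% of all genes with a count. The count was 4 when any 1 control library was left out, 6 without Mfp2-/- replicates 2 and 3, and 7 without Mfp2-/- replicate 2 or with library totals alone. None fell, and P2ry12, P2ry13, Siglech, Gpr34 and Fcrls did not pass. Cx3cr1, the fractalkine receptor (chromosome 9, 119901616 to 120069879, minus strand), had 34.7, 52.3, 39.3 and 37.1 CPM in Mfp2-/- retinas, against 9.83, 8.595, 7.42 and 14.6 CPM in control retinas. The groups were far apart, and replicate 2 was the highest Mfp2-/- library (log2 fold change 2.00 ± 0.23 (SE), adjusted p = 1.16e-04). Tmem119, a membrane protein used as a microglia marker (chromosome 5, 113793729 to 113800516, minus strand), had 10.97, 11.7, 8.07 and 6.99 CPM in Mfp2-/- retinas, against 1.82, 4.98, 2.58 and 3.83 CPM in control retinas. Its rise was smaller, with every Mfp2-/- library above every control library (log2 fold change 1.52 ± 0.34 (SE), adjusted p = 0.00816). Selplg, the P-selectin ligand, is the next of these genes on the same chromosome (chromosome 5, 113818536 to 113832644, minus strand) and had 7.43, 5.08, 7.395 and 8.09 CPM in Mfp2-/- retinas, against 2.18, 0, 2.58 and 1.39 CPM in control retinas. One control library was at 0 and the groups did not overlap (log2 fold change 2.09 ± 0.49 (SE), adjusted p = 0.00954).

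Olfml3, a secreted olfactomedin-domain protein, had 10.3, 34.6, 20.8 and 14.3 CPM in Mfp2-/- retinas, against 5.46, 4.07, 2.26 and 3.14 CPM in control retinas. Mfp2-/- libraries differed among themselves by more than they did for Cx3cr1, with replicate 2 highest and replicate 1 lowest, yet above all controls (log2 fold change 2.40 ± 0.42 (SE), adjusted p = 0.002002). Without Mfp2-/- replicates 2 and 3 Olfml3 still passed, with a log2 fold change of 1.72 (edgeR adjusted p = 0.00368). Sall1, a transcription factor of microglial identity, had 4, 7, 18 and 6 counts in Mfp2-/- retinas, against 1, 1, 3 and 3 counts in control retinas. Without the filter on low counts it passed (log2 fold change 2.11 ± 0.65 (SE), adjusted p = 0.0318), but the call was lost in 7 of 16 alternatives. Among these were leaving out any 1 control library, leaving out Mfp2-/- replicate 3, and leaving out Mfp2-/- replicates 2 and 3.

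The purinergic receptors P2ry12 and P2ry13, neighbours on chromosome 3, did not pass with all 8 libraries, though P2ry12 did in 1 of 16 alternatives (without Mfp2-/- replicate 2, edgeR adjusted p = 0.0497) and P2ry13 in 2 of 16 (without Mfp2-/- replicates 2 and 3, adjusted p = 0.0177, and with library totals alone, adjusted p = 0.0438). P2ry12, the ADP receptor that directs microglial processes, had 11, 4, 15 and 12 counts in Mfp2-/- retinas, against 0, 5, 4 and 7 counts in control retinas. Both groups held low counts and they overlapped (log2 fold change 1.37 ± 0.60 (SE), adjusted p = 0.138), and its exons share 9 bases with Med12l on the other strand, which had 442 counts in Mfp2-/- and 317 in control retinas. P2ry13 had 21, 12, 9 and 15 counts in Mfp2-/- retinas, against 7, 1, 6 and 10 counts in control retinas, again with overlap (log2 fold change 1.30 ± 0.48 (SE), adjusted p = 0.0735). For Siglech, a sialic acid-binding lectin of microglia, there were 5, 6, 6 and 15 counts in Mfp2-/- retinas, against 2, 3, 6 and 3 counts in control retinas, and replicate 4 was the highest Mfp2-/- library (log2 fold change 1.22 ± 0.58 (SE), adjusted p = 0.177). Gpr34, a lysophosphatidylserine receptor, had 11, 2, 2 and 5 counts in Mfp2-/- retinas, against 4, 0, 3 and 4 counts in control retinas (log2 fold change 0.88 ± 0.74 (SE), adjusted p = 0.489). Its interval includes a decrease as well as an increase.

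Fcrls, an Fc receptor-like scavenger receptor, split the Mfp2-/- libraries. It had 17, 1, 2 and 15 counts in Mfp2-/- retinas, against 3, 2, 1 and 0 counts in control retinas. Replicates 1 and 4 were high, whereas replicates 2 and 3, the libraries with few reads outside genes, were at the control level. With all 8 libraries the gene did not pass (log2 fold change 2.43 ± 0.85 (SE), adjusted p = 0.0575), but it did in 6 of 16 alternatives, among them without replicate 2, without replicate 3 and without both.

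All 7 activation genes rose in the fit without the filter on low counts, beside 7.69% of all genes. Groups did not overlap for 6 of 7, beside 10.3% of all genes with a count. Tyrobp, the signalling adaptor of TREM2 (chromosome 7, 30413760 to 30417585, plus strand), had 16.3, 13.2, 19.8 and 18.02 CPM in Mfp2-/- retinas, against 1.09, 3.62, 1.61 and 2.09 CPM in control retinas. Even the lowest Mfp2-/- library was several-fold above the highest control (log2 fold change 3.03 ± 0.32 (SE), adjusted p = 6.65e-05). Trem2, the lipid-sensing receptor (chromosome 17, 48346401 to 48354147, plus strand), had 4.25, 9.65, 3.698 and 5.15 CPM in Mfp2-/- retinas, against 1.09, 0.452, 0.968 and 0.697 CPM in control retinas. Replicate 2 was the highest Mfp2-/- library and no control reached the lowest one (log2 fold change 2.68 ± 0.47 (SE), adjusted p = 0.00197).

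Gpnmb, a transmembrane glycoprotein of lipid-laden phagocytes that melanocytes and pigment epithelium also express (chromosome 6, 49036546 to 49070929, plus strand), had the most counts of the 38 genes. Its level was 67.6, 133, 67.6 and 55.5 CPM in Mfp2-/- retinas, against 23.3, 12.7, 18.1 and 16.02 CPM in control retinas. Mfp2-/- replicate 2 was far above the other 3, which themselves lay above every control (log2 fold change 2.19 ± 0.29 (SE), adjusted p = 3.43e-04). Genes of the retinal pigment epithelium and melanocytes summed to 185 to 302 CPM in Mfp2-/- and 120 to 205 CPM in control retinas. None of the 7 tested passed, with a median log2 fold change of 0.43. The melanin synthesis gene Dct did pass without the filter on low counts (log2 fold change 0.79 ± 0.24 SE, edgeR adjusted p = 0.0320). Its level was 112.5, 224.6, 139.8 and 108.1 CPM in Mfp2-/- retinas, against 128.1, 65.6, 73.2 and 67.9 CPM in control retinas. The genes of this list did not share a highest Mfp2-/- library, and the part of these cells in the level of Gpnmb was not tested.

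Axl, a receptor kinase for apoptotic cells, had 20.9, 26.9, 22.2 and 21.7 CPM in Mfp2-/- retinas, against 10.2, 4.98, 5.48 and 12.2 CPM in control retinas. The Mfp2-/- libraries were close together and the control libraries more spread (log2 fold change 1.46 ± 0.28 (SE), adjusted p = 0.003203). Müller glia can express Axl as well. Of 8 tested genes of Müller glia and astrocytes 5 passed upward, beside 13.8% of all genes tested. Among the 5 were Gfap (log2 fold change 3.24 ± 0.31 (SE), adjusted p = 2.64e-05) and Vim (log2 fold change 1.25 ± 0.19 (SE), adjusted p = 7.64e-04). Glul, Rlbp1 and Aqp4 did not pass (log2 fold changes -0.52, -0.011 and 0.13). The list summed to 3080 to 4482 CPM in Mfp2-/- and 3053 to 3835 CPM in control retinas. Glul alone had a mean of 1604 CPM in Mfp2-/- and 2300 CPM in control retinas. The part of these cells in Axl was not tested. Spp1, osteopontin, which ganglion cells also express, had 14.2, 9.65, 11.1 and 4.04 CPM in Mfp2-/- retinas, against 4.37, 5.43, 2.58 and 1.04 CPM in control retinas. It is the activation gene whose groups overlapped, because Mfp2-/- replicate 4 lay below control replicates 1 and 2 (log2 fold change 1.57 ± 0.48 (SE), adjusted p = 0.0342). The call was lost in 7 of 17 alternatives, among them limma-voom and the fit without Mfp2-/- replicates 2 and 3. Of 8 ganglion cell genes 4 passed upward, beside 13.8% of all genes tested, and without the filter 3 did, beside 7.69%. The part of ganglion cells in Spp1 was not tested.

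The steepest activation genes were nearly silent in control retinas. Clec7a, the β-glucan receptor dectin-1 (annotated as a polymorphic pseudogene in GENCODE M21; chromosome 6, 129461591 to 129472779, minus strand), had 51, 3, 28 and 29 counts in Mfp2-/- retinas, against 2, 2, 1 and 0 counts in control retinas. Replicate 2 was almost at the control level, and the other Mfp2-/- libraries were high (log2 fold change 4.31 ± 0.69 (SE), adjusted p = 1.47e-04). Cst7, the protease inhibitor cystatin F, had 5, 1, 4 and 4 counts in Mfp2-/- retinas, against 0, 0, 0 and 0 counts in control retinas. With control libraries at 0, its ratio to a floor of 3 counts over the control group was 4.86 (edgeR adjusted p = 0.0156). This ratio leaves out the error of the Mfp2-/- counts.

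**Figure D2:**
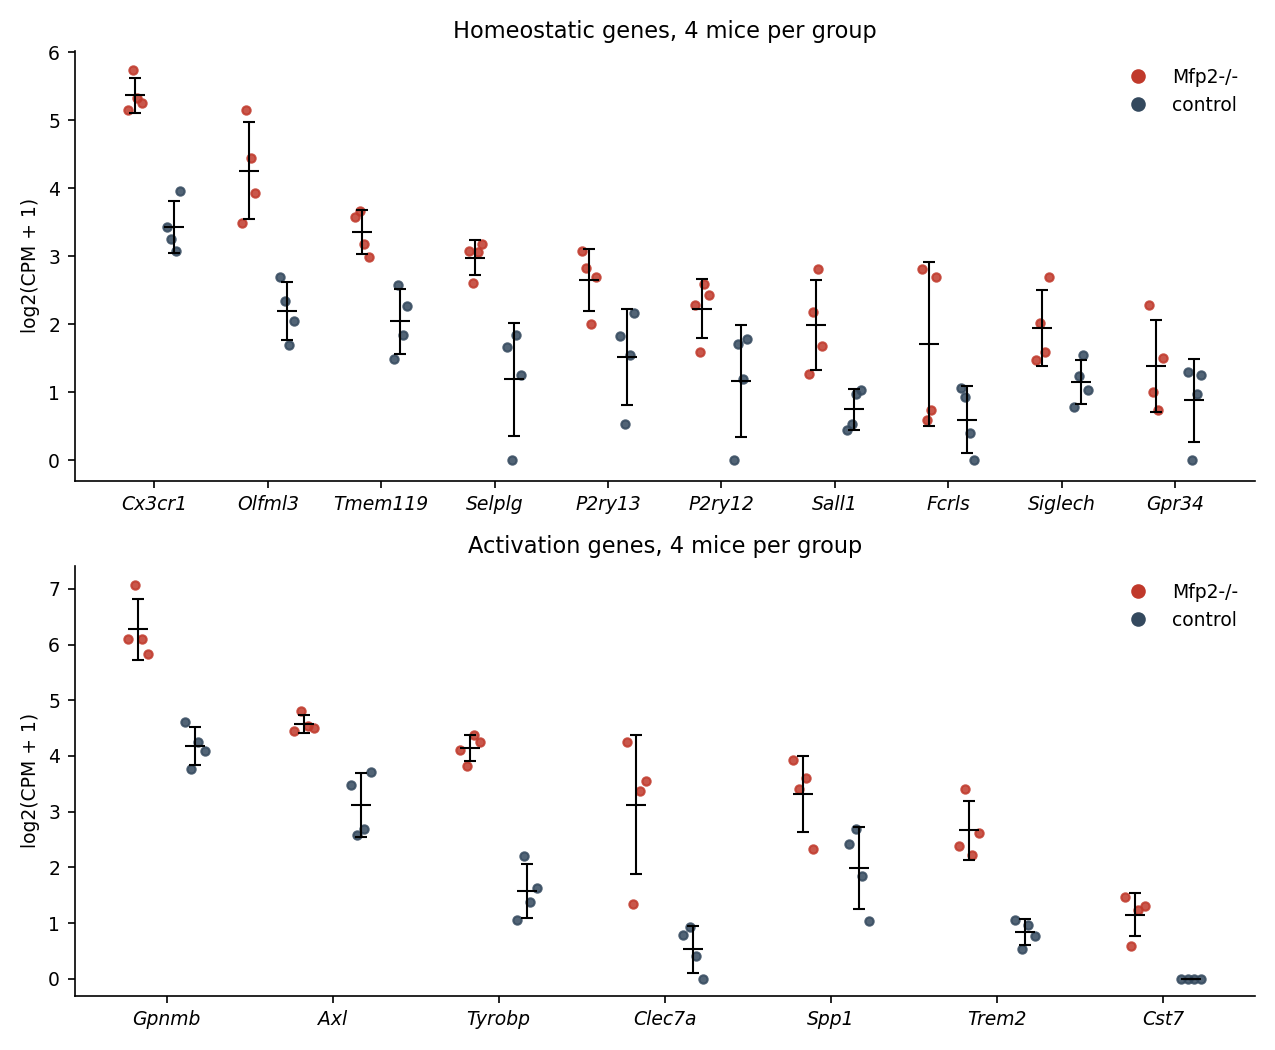
Levels of the 10 homeostatic genes (upper panel) and the 7 activation genes (lower panel) as log2(CPM + 1), with each point 1 library and bars the mean ± SD of 4 mice, Mfp2-/- left of control. The panels show separated groups for Cx3cr1 and Tyrobp, overlap for P2ry12 and Spp1, and the split of Fcrls among Mfp2-/- libraries.

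The 8 genes shared by microglia and other myeloid cells all passed upward without the filter, beside 7.69% of all genes. Their groups did not overlap, beside 10.3% of all genes with a count. Csf1r, the receptor for CSF1 and IL-34 (chromosome 18, 61100598 to 61132149, plus strand), had 56.3, 88.4, 49.1 and 61.04 CPM in Mfp2-/- retinas, against 17.5, 13.1, 15.5 and 16.4 CPM in control retinas. The groups lay far apart (log2 fold change 2.01 ± 0.20 (SE), adjusted p = 4.34e-05). Hsd17b4 lies on the same chromosome (50128201 to 50196269), as does Cd14, and any effect of this position was not tested. The exons of Csf1r share 873 bases with Hmgxb3 on the other strand, and whether the counting used strand is not given. Hmgxb3 did not pass (194 counts in Mfp2-/- and 200 in control retinas). Laptm5, a lysosomal protein of haematopoietic cells (chromosome 4, 130913125 to 130936141, plus strand), had 43.5, 45.2, 42.02 and 35.7 CPM in Mfp2-/- retinas, against 4.73, 5.88, 6.77 and 4.18 CPM in control retinas. Its Mfp2-/- libraries were close together, and its adjusted p was the smallest of the 22 members that passed the filter (log2 fold change 2.94 ± 0.19 (SE), adjusted p = 1.57e-06).

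Aif1, which encodes the microglial marker Iba1, had 10.97, 9.65, 8.74 and 10.7 CPM in Mfp2-/- retinas, against 1.46, 0.452, 1.94 and 1.74 CPM in control retinas. All Mfp2-/- libraries were alike and high (log2 fold change 2.75 ± 0.34 (SE), adjusted p = 2.06e-04). Mpeg1 (perforin-2; log2 fold change 2.94 ± 0.43 (SE), adjusted p = 6.60e-04), Cd68 (a lysosomal scavenger; log2 fold change 2.47 ± 0.49 (SE), adjusted p = 0.00402) and Cd52 (a surface glycoprotein; log2 fold change 3.07 ± 0.54 (SE), adjusted p = 0.00205) also rose. Ptprc, the leukocyte phosphatase CD45, had 33, 5, 11 and 28 counts in Mfp2-/- retinas, against 5, 4, 1 and 4 counts in control retinas, with Mfp2-/- replicates 2 and 3 much lower than replicates 1 and 4 (log2 fold change 2.41 ± 0.56 (SE), adjusted p = 0.00495). Ly86, the partner of CD180, had 6 to 11 counts in Mfp2-/- and 0 to 4 in control retinas (log2 fold change 2.21 ± 0.73 (SE), adjusted p = 0.0457). Its call was lost in 7 of 16 alternatives, the fit without Mfp2-/- replicates 2 and 3 among them.

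Of the 4 Fc receptor genes 2 rose, Fcer1g and Fcgr3, beside 7.69% of all genes without the filter. Fcer1g, the common γ chain (chromosome 1, 171229572 to 171234365, minus strand), had 19.1, 20.8, 19.2 and 17.7 CPM in Mfp2-/- retinas, against 1.09, 1.36, 4.19 and 1.74 CPM in control retinas. It was nearly constant among Mfp2-/- libraries (log2 fold change 3.12 ± 0.34 (SE), adjusted p = 7.64e-05). Fcgr3, an activating IgG receptor (chromosome 1, 171051174 to 171064935, minus strand), had 10.3, 9.65, 5.71 and 8.09 CPM in Mfp2-/- retinas, against 1.09, 1.81, 1.94 and 1.04 CPM in control retinas, with no overlap (log2 fold change 2.48 ± 0.35 (SE), adjusted p = 4.95e-04). Fcgr2b, the inhibitory receptor, had 4, 11, 7 and 4 counts in Mfp2-/- retinas, against 3, 0, 3 and 1 counts in control retinas. Its groups did not overlap but it did not pass (log2 fold change 1.95 ± 0.75 (SE), adjusted p = 0.0879), nor did Fcgr1 (log2 fold change 1.47 ± 0.77 (SE), adjusted p = 0.226). The genes of this family are similar in sequence, and reads could be divided among them by the counting.

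Among genes of innate sensing, Lyz2, the lysozyme of macrophages, had 10.3, 15.2, 13.8 and 15.8 CPM in Mfp2-/- retinas, against 2.18, 0.905, 0.323 and 1.04 CPM in control retinas. Its log2 fold change was the largest of the 22 genes that passed the filter (log2 fold change 3.58 ± 0.40 (SE), adjusted p = 9.002e-05). Lyz1, its near copy, had 0 counts in Mfp2-/- and 1 in control retinas. Lyn, a Src family kinase (log2 fold change 2.33 ± 0.31 (SE), adjusted p = 3.73e-04), and Unc93b1, the chaperone of endosomal Toll-like receptors (log2 fold change 2.27 ± 0.33 (SE), adjusted p = 5.57e-04), rose. Cd14, the endotoxin co-receptor, had 7 to 15 counts in Mfp2-/- and 2 to 3 in control retinas (log2 fold change 2.02 ± 0.57 (SE), adjusted p = 0.01795). Its call was lost in 3 of 16 alternatives, without control replicate 4, without Mfp2-/- replicate 3 and without Mfp2-/- replicates 2 and 3. Msr1, a scavenger receptor, had 1, 0, 1 and 3 counts in Mfp2-/- retinas, against 0, 0, 0 and 0 counts in control retinas and did not pass (edgeR adjusted p = 0.145).

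Both chemokines, which lie near each other on chromosome 11, rose without the filter, beside 7.69% of all genes. Ccl3 had 13, 4, 8 and 13 counts in Mfp2-/- retinas, against 3, 0, 1 and 1 counts in control retinas. No control library reached the lowest Mfp2-/- library (log2 fold change 2.83 ± 0.69 (SE), adjusted p = 0.00723). Ccl4 had 7, 6, 2 and 12 counts in Mfp2-/- retinas, against 0, 1, 0 and 0 counts in control retinas, so that 27 counts stood against 1. The scaled ratio was 28.1, and its exact binomial bounds (95%) were 4.64 and 1152 (edgeR adjusted p = 0.00587). Such bounds leave out the spread between mice, and sequenced reads are not independent molecules.

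Apobec1, an RNA editing enzyme, had 7.08, 6.098, 7.73 and 7.35 CPM in Mfp2-/- retinas, against 2.55, 0.452, 0.645 and 1.39 CPM in control retinas. The groups did not overlap (log2 fold change 2.43 ± 0.42 (SE), adjusted p = 0.00174). Ucp2, a mitochondrial carrier that many cells express, had 11.3, 19.8, 20.5 and 15.8 CPM in Mfp2-/- retinas, against 15.3, 8.595, 8.06 and 8.71 CPM in control retinas. Control replicate 1 lay above Mfp2-/- replicate 1, and the gene did not pass (log2 fold change 0.72 ± 0.28 (SE), adjusted p = 0.0769), although it did in 4 of 18 alternatives.

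Activation and homeostatic genes were then compared within each library, as a description with no test. The mean log2 CPM over the 5 of 7 activation genes that passed the filter minus that over the 4 of 10 homeostatic genes that did was 0.37, 0.22, 0.16 and 0.06 in Mfp2-/- libraries, against 0.19, 0.36, 0.10 and -0.17 in control libraries. The groups overlapped and their means differed by 0.08, but these genes leave out Clec7a and Cst7 and the homeostatic genes with few counts. Over all 17 genes, an alternative added after the data were seen, the same quantity was 0.99, 0.77, 1.02 and 0.58 in Mfp2-/- libraries, against 0.46, 0.55, 0.11 and -0.13 in control libraries. Here the means differed by 0.59 without overlap. With summed levels of all members the difference was 0.24, and without Gpnmb, Spp1 and Axl among the filtered genes it was 0.49, with overlap in both cases. Whether activation genes changed by more than homeostatic genes thus depended on the genes taken in and on the summary.

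Each member with a count in every library was next set against the summed level of 6 shared myeloid genes (Csf1r, Ptprc, Laptm5, Aif1, Mpeg1 and Ly86) in the same library. Of 20 such members, 18 had overlapping groups. Left out, for lack of a count in some library, were Clec7a, Cst7, Ccl3, Ccl4, Cd52, Msr1, Fcgr1, Fcgr2b, P2ry12, Fcrls, Gpr34 and Selplg. Cst7, Clec7a and Ccl4 had the largest log2 fold changes of all members in the fit without the filter, so the steepest genes are missing here. Axl (difference of mean log2 ratios -0.82) and Ucp2 (-1.66) were lower relative to these genes in every Mfp2-/- library than in any control. The level of the 6 genes itself rose by 2.40 log2 units, so any gene that rose by less is lower in this ratio by construction. Other retinal cells also express Axl and Ucp2, and the share over all genes was not taken. Among the homeostatic genes the differences ran between -1.17 for Siglech and -0.05 for Olfml3, and all 6 were negative, with overlap. Lyz2 (1.51), Fcer1g (1.00) and Tyrobp (0.72) had the most positive differences among the 20 members taken in, also with overlap.

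For a role as a whole the answer depended on how it was summarised, and several ways were tried. The mean log2 CPM of the homeostatic genes that passed the filter relative to the 6 genes was lower by 0.55 in Mfp2-/- retinas with no overlap, and that of the activation genes by 0.47 with no overlap. The prior count of 2 was added to the counts of these members but not to those of the 6 genes. This makes both differences more negative by construction, and both values moved with the prior count. At a prior of 0.5 the differences were -0.30 and -0.25 and the groups overlapped, and relative to Csf1r alone they were -0.15 and -0.071, with overlap. Summed counts, which need no prior, were added after this was seen. The 10 homeostatic genes summed to 64.2, 76.1, 75.7 and 69.9% of the counts of the 6 genes in Mfp2-/- retinas, against 98.6, 96.2, 82.1 and 122% in control retinas. These did not overlap, but as a percentage of Csf1r counts alone the sums were 158 ± 22.9% in Mfp2-/- and 166 ± 25.9% in control retinas (SD, n = 4 each), with overlap. The 7 activation genes summed to 107 ± 14.1% of the 6 genes in Mfp2-/- and 126 ± 22.1% in control retinas, with overlap in all 8 libraries. Without Mfp2-/- replicates 2 and 3 the groups no longer overlapped, with a mean log2 ratio of -0.051 in Mfp2-/- and 0.31 in control retinas. Without Gpnmb, Spp1 and Axl the activation sums were 25.0 ± 6.25% in Mfp2-/- and 13.3 ± 4.97% in control retinas, the order reversed and the groups overlapping.

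**Figure D3:**
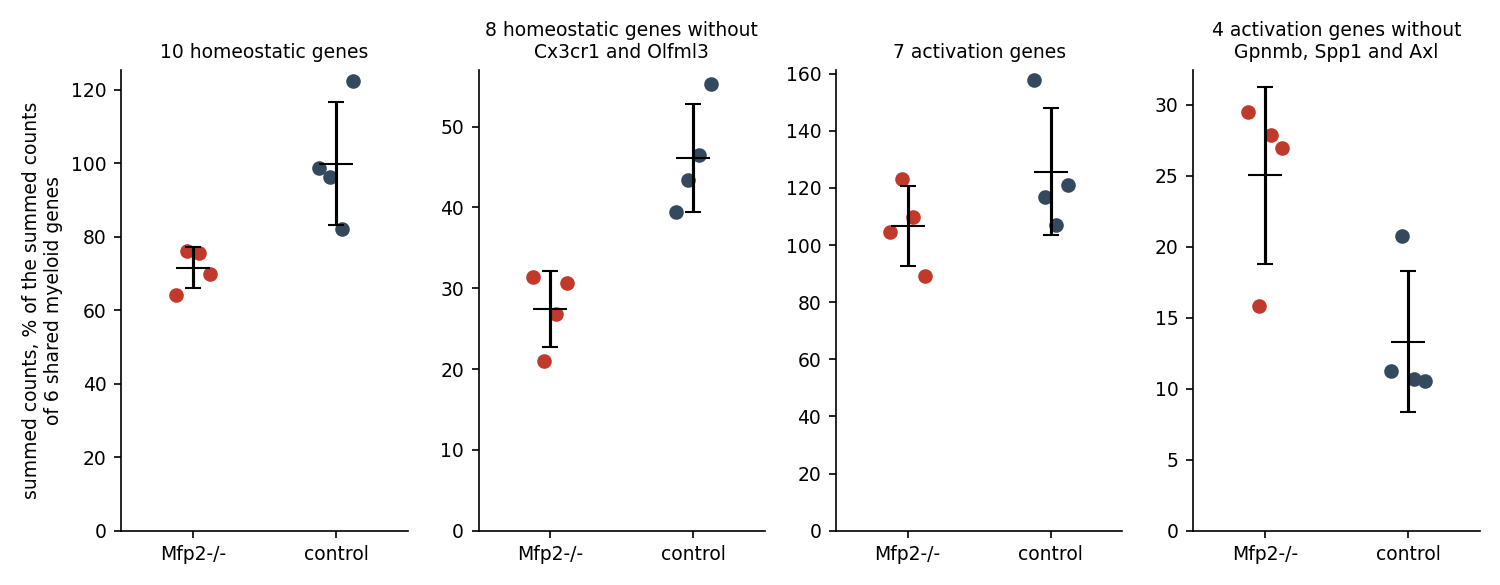
Summed counts of homeostatic genes (left 2 panels) and activation genes (right 2 panels) as a percentage of the summed counts of 6 shared myeloid genes, with each point 1 library and bars the mean ± SD, Mfp2-/- left of control (y axes start at 0). The homeostatic sums were 71.5 ± 5.60% in Mfp2-/- and 99.8 ± 16.7% in control retinas and did not overlap, whereas both activation sums overlapped with all 8 libraries.

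The Mfp2-/- libraries did not vary alike for all members. Replicates 2 and 3 both lay above replicates 1 and 4 for 10 members, among them Cx3cr1, Olfml3, Lyn and Axl. Both lay below for 10 others, among them Fcrls, Ptprc, Clec7a and Cd52. Over the 12516 genes that passed the filter these patterns took 26.5% and 29.2%. The members were counted over all 38, filtered or not, so the sets are unlike and nothing about the members is read from them. Without these 2 libraries 28 of 38 members passed upward in the fit without the filter.

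**Figure D4:**
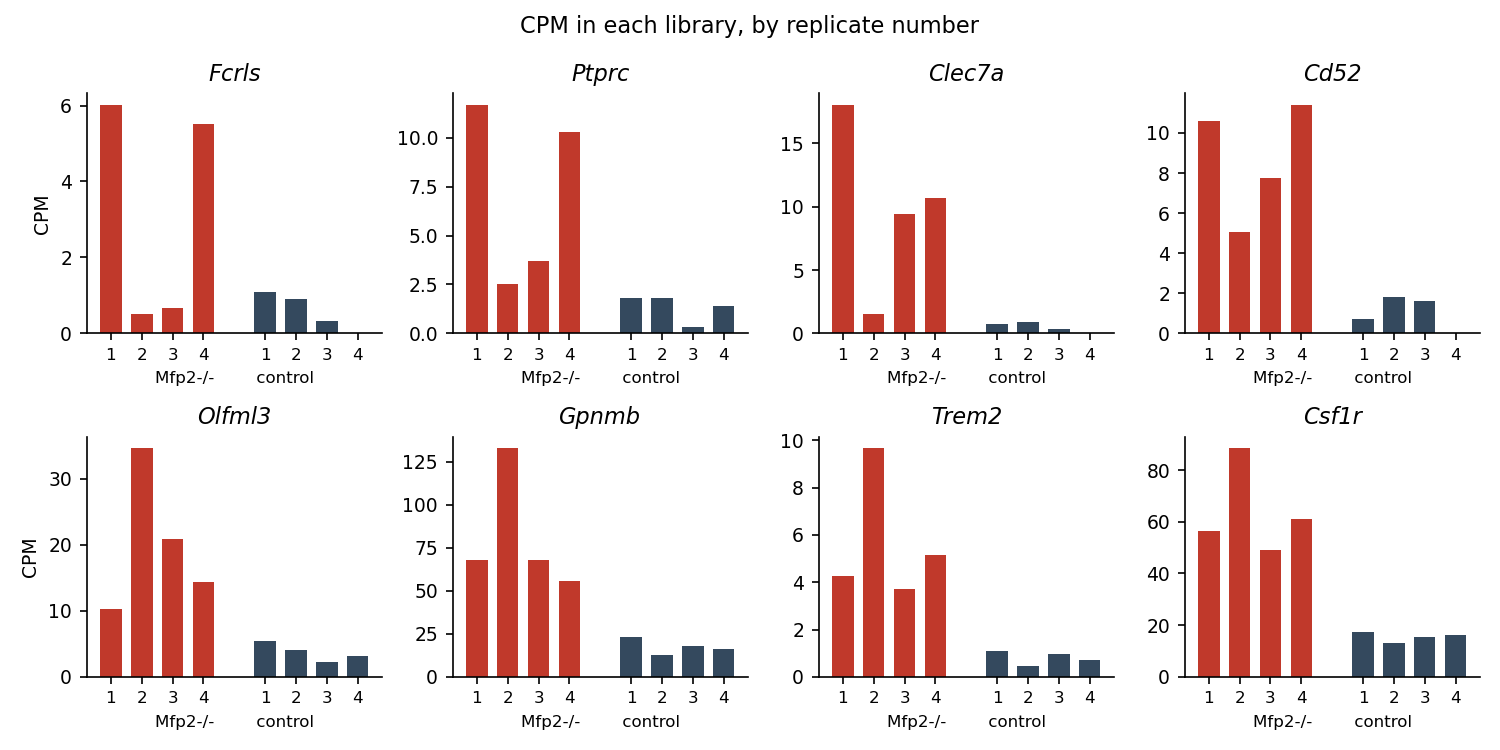
CPM of 8 genes in each library, by replicate number, Mfp2-/- left of control (1 bar per library, y axis from 0). The genes were chosen after their values were seen. Fcrls, Ptprc, Clec7a and Cd52 (upper row) were low in Mfp2-/- replicate 2, whereas Olfml3, Gpnmb, Trem2 and Csf1r (lower row) were highest there.

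Ligands of the member receptors were higher too, and without the filter 9 of 10 passed upward, beside 7.69% of all genes. After the filter 8 of 9 did, beside 13.8%, with a median log2 fold change of 0.78 beside -0.0039 for all genes tested. Csf1 had 15.9, 17.8, 13.4 and 13.97 CPM in Mfp2-/- retinas, against 2.55, 3.62, 1.94 and 1.39 CPM in control retinas (log2 fold change 2.69 ± 0.30 (SE), adjusted p = 7.64e-05). Il34, the other ligand of CSF1R (log2 fold change 0.78 ± 0.20 (SE), adjusted p = 0.0146), and Cx3cl1, the ligand of CX3CR1 (log2 fold change 0.61 ± 0.14 (SE), adjusted p = 0.00759), rose by less. Of the bridging ligands for AXL and MERTK, Pros1 rose (log2 fold change 1.13 ± 0.24 (SE), adjusted p = 0.00613) and Gas6 did not pass (log2 fold change -0.45 ± 0.22 (SE), adjusted p = 0.1502).

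Of 30 partners and signalling genes 11 were tested, and 5 rose, beside 13.8% of all genes tested. They were Cd44, a receptor of osteopontin (log2 fold change 3.04 ± 0.21 (SE), adjusted p = 2.002e-06), Cd180, the partner of Ly86 (log2 fold change 3.59 ± 0.50 (SE), adjusted p = 4.34e-04), Ptpn6, Smad3 and Mertk. Genes of these lists, too, can pass the filter through the Mfp2-/- libraries alone. Without it 12 of 29 partners and signalling genes passed upward and 0 downward, beside 7.69% of all genes upward and 8.12% downward. Of the other homeostatic genes 12 of 26 were tested, 8 rose and 2 fell, and without the filter 13 of 25 rose and 2 fell. The complement genes C1qa (log2 fold change 2.69 ± 0.24 (SE), adjusted p = 1.64e-05), C1qb and C1qc were among those that rose. Susd3 (log2 fold change -4.31 ± 0.27 (SE), adjusted p = 1.005e-06) and Bin1 (log2 fold change -0.92 ± 0.12 (SE), adjusted p = 2.46e-04) fell. Their mean levels in control retinas were 148 and 242 CPM, against 15.6 CPM for Csf1r. The part of other cells in Susd3 and Bin1 was not tested. Of the other disease-associated genes, 13 of 20 tested rose and 0 fell, and without the filter 17 of 27 rose and 0 fell. Among them were Apoe (log2 fold change 1.48 ± 0.15 (SE), adjusted p = 5.45e-05) and B2m (log2 fold change 3.16 ± 0.17 (SE), adjusted p = 4.18e-07). Their mean levels in control retinas were 603 and 70.0 CPM, and the part of other cells in Apoe and B2m was not tested.

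Markers of neutrophils, T cells and NK cells were near 0. Neutrophil genes summed to 0.672 to 3.05 CPM in Mfp2-/- and 0 to 1.82 CPM in control retinas, and T and NK cell genes to 0.672 to 3.56 CPM in Mfp2-/- and 0.452 to 1.39 CPM in control retinas. B cell genes summed to 1.52 to 4.41 CPM in Mfp2-/- and 0.348 to 1.46 CPM in control retinas. Dendritic cell genes summed to 9.55 to 18.8 CPM in Mfp2-/- and 7.64 to 14.98 CPM in control retinas, though Xcr1, Clec9a and Cd209a had 0 counts in all libraries. The monocyte markers Ly6c2 and Chil3 had 0 counts in all libraries, and Ccr2 had 8 counts in Mfp2-/- and 1 in control retinas. The monocyte list summed to 71.6 to 97.1 CPM in Mfp2-/- and 29.0 to 49.8 CPM in control retinas. After the filter 2 of its 3 tested genes passed upward, Fn1 (log2 fold change 1.26 ± 0.20 (SE), adjusted p = 0.00124), a matrix gene of many cells, and S100a4 (log2 fold change 1.29 ± 0.40 (SE), adjusted p = 0.0352), a calcium-binding protein. Without the filter 2 of 7 monocyte genes passed upward, beside 7.69% of all genes. Perivascular macrophage genes summed to 35.1 to 55.5 CPM in Mfp2-/- and 30.8 to 45.5 CPM in control retinas, of which Lyve1 did not pass (log2 fold change 0.11 ± 0.21 (SE), adjusted p = 0.7297), while Mrc1, Pf4 and F13a1 passed without the filter at 17 to 29 counts in Mfp2-/- and 0 to 2 in control retinas. Their part in the shared myeloid genes was not tested.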

How the data were processed

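Total RNA of neural retinas was sequenced by QuantSeq (3′ ends) in 8 libraries. The authors deposited raw counts of reads per gene symbol, made with FastQC 0.11.7, HISAT2, SAMtools 1.5 and HTSeq 2.7.14 on mm10 per the submitters' processing notes. Neither the release of the annotation nor the strand setting is given in the sources used here. Closing rows that name no gene (59.2 to 66.9% of reads) were left out. Counts were tested in R 4.3.3 with edgeR 4.0.16 (quasi-likelihood, TMM, filterByExpr, Benjamini-Hochberg over all genes tested), and again without the filter. Alternatives used limma 3.58.1 (voom), DESeq2 1.42.0, other scalings and filters, and left-out libraries. The SE given is the absolute log2 fold change divided by the square root of the quasi-likelihood F. A prior count of 2 was used for log2 CPM values per library, not for the fitted fold changes. Replicates are separate mice. No pair of libraries was identical. Positions are from GENCODE M21 (GRCm38) and promoters from RefSeq (GRCm38.p6). Scripts were tested on simulated data. Members and lists were chosen with earlier results of these data known. Named genes were all 38 members, Hsd17b4, up to 4 genes per pathway list by adjusted p with direct ligands or partners, and up to 3 per list of other cells. Spi1, Dct, Vim, Glul, Rlbp1, Aqp4, Bin1, Lyz1, Hmgxb3, Med12l and the perivascular genes past 3 were named after their values were seen. Role sums relative to myeloid genes were added after the mean log2 values were seen to move with the prior count.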

Additional observations from a re-analysis of the deposited data

Results flagged for a closer look

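Of 80 groups of 4 libraries examined for 1 library far from the other 3, 3 were found, where chance gives about 1 in 20. Gpnmb had 132.6 CPM in Mfp2-/- replicate 2, against 55.5 to 67.6 CPM in the other Mfp2-/- libraries. Ucp2 had 15.3 CPM in control replicate 1, while the other control libraries had 8.06 to 8.71 CPM. Ccl4 had 0.452 CPM, a single count, in control replicate 2, where the other control libraries had 0.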

How the results depend on the processing

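Depth limits the 16 members that did not pass the filter. The numbers of the replicates did not pair the libraries (correlations of deviations 0.08, -0.16, 0.25 and 0.21). With the replicate block 21 of 22 members passed upward, and 26 of 38 without the filter, against 29 without the block, and the calls of Cst7 (adjusted p = 0.0773), Ly86 (0.0558) and Sall1 (0.0506) were lost. Over the alternatives for single members 597 values kept their side of the threshold, 25 lost the call, 13 gained it and 0 changed direction. Spp1 reached an adjusted p of 0.0865. Requiring 10 counts in every library left 5 members called, 1 homeostatic and 2 activation, because only 6 members were tested, and gave an activation median of 1.83. The homeostatic median (2.05) was 1.77 without Mfp2-/- replicates 2 and 3, and 1.84 to 2.14 with 1 library left out. The activation median (2.19) was 1.80 without both, and 1.85 to 2.35 with 1 left out. Over all members, tested or not and added after the data were seen, the homeostatic median was 1.74 and the activation median 2.68, beside 0.03 for all genes. With Cst7 at its ratio to the floor of 3 counts the activation median was 2.28. Activation minus homeostatic (0.08) was 0.49 without Spp1, Gpnmb and Axl and 0.59 over all members. The homeostatic mean relative to myeloid genes (-0.55) was -0.30 at a prior count of 0.5, -0.82 at 5, -0.15 against Csf1r alone and, by summed counts against Csf1r, -0.069. That of activation (-0.47) was -0.25, -0.75 and -0.071, and -0.064 without Spp1, Gpnmb and Axl. By summed counts, chosen after seeing the data, it was -0.23, -0.27 against 8 genes, and reversed to 0.17 against Csf1r and to 0.93 without those 3 genes. The prior count adds to low counts by construction, and the cause of the other differences was not tested.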
